A study of Danio rerio with 10 samples.

Results

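The genes described here encode the proteins that cut introns out of messenger RNA: the small nuclear ribonucleoproteins and helicases of the spliceosome, the serine and arginine-rich (SR) proteins and the heterogeneous nuclear ribonucleoproteins (hnRNPs). Membership was set by symbol, and the members are every gene of the deposited annotation whose symbol starts with srsf, hnrnp, sf3a, sf3b, snrp, u2af, prpf, lsm1 to lsm8, ddx39 or rbm8, rbm17, rbm22, rbm25 or rbm39. This gave 101 of 25911 genes, of which 100 had enough counts to be tested. The exception was lsm14b, at a mean normalized count of 5.95 in WT and 4.94 in can4-/- pools. RNA of whole zebrafish larvae of the AB strain background was measured at 3 dpf (days post fertilization) in 5 pools of can4-/- larvae, which are homozygous for a mutation of top2a, the gene of DNA topoisomerase IIα, and in 5 pools of WT (can4+/+) larvae from incrosses of can4+/- parents. Each pool held RNA of 9 larvae genotyped one by one, and the labels name no treatment. The mothers were heterozygous, so can4-/- embryos can carry maternal top2a RNA, and the genotype acts on the zygotic supply.

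Splicing begins when the U1 small nuclear ribonucleoprotein (snRNP) marks the start of an intron and U2AF and the U2 snRNP, with its SF3A and SF3B subunits, mark its end. The U4/U6·U5 tri-snRNP, with the PRPF proteins, then joins, and helicases rearrange the particle into the catalytic form. SR proteins bind mostly in exons and help nearby splice sites to be used, whereas hnRNPs coat nascent RNA and often block splice sites, so the balance of both families sets which exons are kept. Dividing progenitors and developing neurons are known for high levels of many of these RNA-binding proteins and for extensive alternative splicing. Many SR and hnRNP genes also control their own level through exons that send the transcript to nonsense-mediated decay.

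The can4-/- larvae had less RNA of most SR, hnRNP and U2AF genes, while most SF3, snRNP, LSm and PRPF genes did not pass the test. That contrast in calls rests on scaling that centres the bulk of all genes near no change, as TMM factors do. RLE factors do so too, with a median of all genes of 0.01. With RLE factors, 36 of 44 SR, hnRNP and U2AF genes and 11 of 46 SF3, snRNP, LSm and PRPF genes were lower. With libraries scaled by their total counts, 37 of the 46 tested SF3, snRNP, LSm and PRPF genes were lower, at a median of -0.23. Of the 44 SR, hnRNP and U2AF genes, 41 were lower, at a median of -0.48. Among all genes tested, 47.7% were lower with this scaling, at a median of -0.17. With TMM factors, used from here on unless stated, of the 100 genes tested, 58 were lower in can4-/- pools, 7 were higher and 35 did not pass an adjusted p of 0.05 (edgeR quasi-likelihood test, Benjamini-Hochberg adjustment over 23039 genes). Among all genes tested, 36.9% were lower, 36.3% were higher and 73.2% passed in either direction. The 65 called genes are therefore a smaller share than among all genes, and they leaned to 1 side. Among genes with a mean normalized count of at least 100, 38.9% of all 17822 and 58.8% of the 97 splicing genes were lower. The median log2 fold change was -0.18 over the 100 genes and 0.0027 over all genes, and the median size of a change in either direction was 0.215 against 0.437.

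Changes of this family were small. Only 6 genes fell by at least 1.5-fold at the same threshold, all of them hnRNP genes, where 21.3% of all genes did, and only 1 rose by as much, where 17.4% of all genes did. The gene that rose, the less abundant srsf3a gene, passed the count filter only through its can4-/- pools. The normalized counts of 52 genes, 47 lower and 5 higher, did not overlap between the 5 WT and the 5 can4-/- pools, compared with 60.8% of all genes. Leaving out each pool in turn left 57 of the 65 calls in place every time. The other 8 calls, of lsm1, lsm5, prpf6, srsf5a, the more abundant srsf3a gene, snrpd3, hnrnpa1a and the hnrnpa0l gene on chromosome 14, were lost without at least 1 pool. Of the 10 such runs, lsm5 kept its call in 1, that srsf3a gene in 2, and lsm1 and that hnrnpa0l gene in 3. hnrnpa1a kept it in 5, srsf5a in 6, and prpf6 and snrpd3 in 7. The annotated spans of 24 of the 101 genes overlap another gene, 13 of them on the same strand, and reads there may be shared. Genes with a same-strand overlap include srsf7b, srsf10b, srsf11, sf3a1, sf3b3 and rbm25b, while hnrnpa0b and hnrnpm overlap a gene on the other strand.

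**Figure D1:**
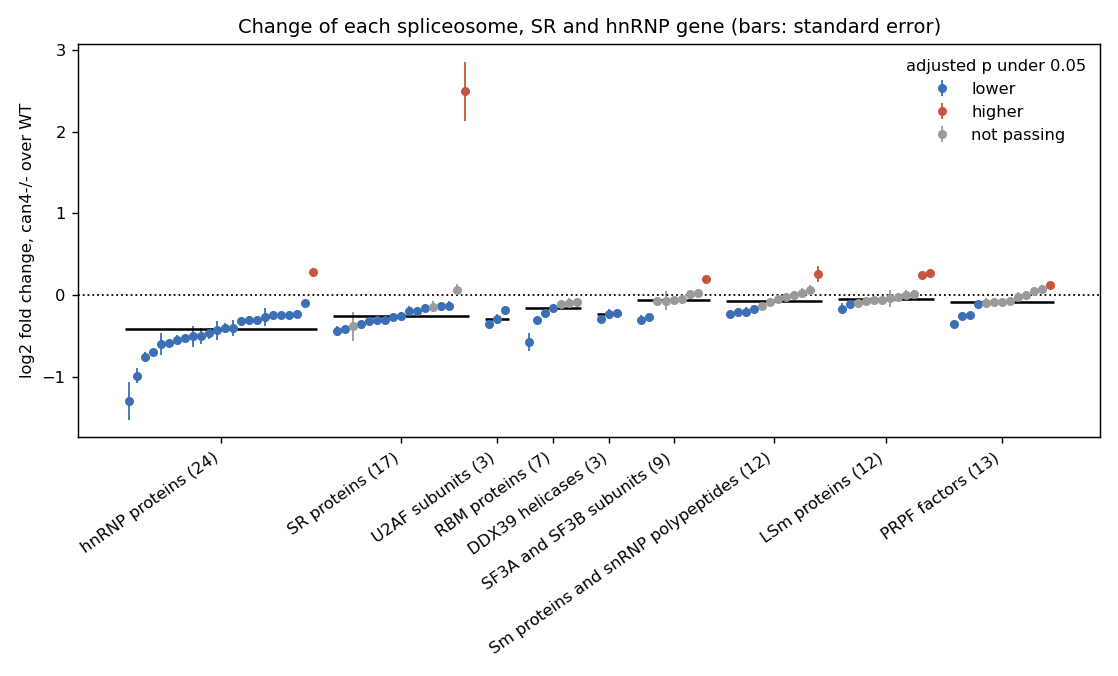
Log2 fold change (can4-/- over WT) of the 100 tested genes, 1 point per gene with its standard error, grouped by role with the number of genes; solid lines are the medians of each role and the dotted line is the median of all genes tested (0.0027). The hnRNP genes lie at a median of -0.42 and the SR genes at -0.25, while the SF3, snRNP, LSm and PRPF genes lie between -0.05 and -0.08.

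Total counts per pool ranged from 29281449 to 45544046, and the biological coefficient of variation between pools of a genotype was 9.59%. As a check of the labels, top2a fell from 8651 ± 248 normalized counts in WT to 802 ± 311 in can4-/- pools (SD, n = 5; log2 fold change -3.43 (SE 0.19), adjusted p = 1.44e-09, edgeR). One can4-/- pool, replicate 2, held 1358 counts of top2a against 635 to 688 in the other can4-/- pools. Relative to the WT mean, the median log2 level of the splicing genes was 0.064 in WT replicate 1 and between -0.026 and -0.0075 in the other WT pools. It was -0.12 in can4-/- replicate 2 and between -0.23 and -0.17 in the other can4-/- pools. Without both of these pools, 53 genes were lower and 7 higher, with a median of -0.16. The scaling of the libraries bears on every direction given here. With library totals in place of TMM factors, the median of all genes shifted to -0.17, 47.7% of all genes were lower and 25.7% higher, and 88 of the splicing genes were lower and 1 higher. Another scaling moves all genes by nearly the same amount, so the distance of a role from the median of all genes (-0.42 for hnRNP genes) is the same under both by construction.

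Whole larvae hold every tissue, and fewer cells of a type cannot be told apart from less RNA per cell. Markers of several cell types moved in the same pools, where 36.9% of all genes tested were lower and 36.3% higher. Of 26 tested genes that mark proliferating cells, 23 were lower (summed level 75224 to 82272 in WT and 53059 to 62664 in can4-/- pools), as were 16 of 19 neural progenitor genes (37981 to 41992 against 22593 to 25594), 23 of 23 neuron genes (135240 to 144636 against 64146 to 72033) and 17 of 17 photoreceptor genes (54059 to 85849 against 523 to 1476). Of the markers searched, 4 cone opsin genes were at 0 counts in 1 or 2 can4-/- pools, and none was at 0 in a WT pool. Muscle genes were higher in 16 of 19 cases (876815 to 1043980 against 1398590 to 1684350) and skin genes in 13 of 15 cases (688361 to 841098 against 1123290 to 1248620), while 3 of 12 blood genes passed, all higher (56427 to 98302 against 66412 to 81441). With library totals, 13 muscle genes were higher and 2 lower, 12 skin genes were higher and 2 lower, and 1 blood gene was higher and 2 were lower. The part of these cell types in the results on splicing genes was not tested.

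The hnRNP genes were lower with a single exception. Of 24 genes, 23 were lower, 1 was higher and all passed the test, with a median log2 fold change of -0.42, and 20 had no overlap between genotypes. Between 21 and 23 were lower when any 1 pool was left out, and 21 without both pools that stood apart. Together they took 0.295% ± 0.011 of all counts in WT and 0.199% ± 0.0118 in can4-/- pools (SD, n = 5). This share rests on total counts, not on TMM factors. Without the 20 highest genes of each pool it was 0.345% in WT and 0.240% in can4-/- pools.

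hnrnpr (chromosome 19, 72661-82516, GRCz11) encodes an RNA-binding protein of neurons and other cells that is close to syncrip. Its normalized counts, the reads per gene scaled to a common library size, were 1113, 1000.5, 884, 896 and 996 in WT replicates 1 to 5 and 400.0, 554, 547, 520.0 and 439 in can4-/- replicates 1 to 5. The highest mutant pool lay far below the lowest WT pool, and the log2 fold change was -0.99 (SE 0.093) with an adjusted p of 3.25e-07 (edgeR). hnrnpa3, named after its values were seen because its mean was under the minimum of 100, had the lowest fold of all, at 119.9, 152, 113, 91.3 and 81 counts in WT and 31.2, 55.9, 63.4, 48.2 and 26.1 in can4-/- pools. These low counts did not overlap either, but varied widely within each genotype (log2 fold change -1.29 (SE 0.23), adjusted p = 0.000176, edgeR).

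Scaffold-type hnRNPs are large proteins that bind chromatin-associated RNA. Of their genes, hnrnpul1l, hnrnpua and hnrnpul1 fell further than the hnRNP median of -0.42, and hnrnpub fell slightly less. hnrnpua (chromosome 17, 11470572-11495466) and hnrnpub are both copies of human HNRNPU. hnrnpua was counted at 4715, 4787, 4799, 4833 and 4728 in WT and at 3162, 3349, 3006, 3177 and 3115 in can4-/- pools. Pools of a genotype lay close together and the genotypes far apart (log2 fold change -0.59 (SE 0.037), adjusted p = 6.13e-09, edgeR). hnrnpub, the more abundant copy in counts, went from 10229 ± 508 to 7709 ± 687 (SD, n = 5; log2 fold change -0.41). hnrnpul1l, a relative of HNRNPU, was measured at 8185, 7847, 7452, 7819.7 and 7718 in WT and 4565, 5293, 4816, 4732 and 4545 in can4-/- pools, again with a wide gap between genotypes (log2 fold change -0.70 (SE 0.048), adjusted p = 1.38e-08, edgeR). hnrnpul1 changed by -0.52 on the log2 scale, from a mean of 5690.4 to 3965.

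hnrnpl, whose protein binds CA-rich RNA, had counts of 8689, 7855, 7908, 8002 and 8058 in WT and 5356, 6193, 5181, 5579 and 5409 in can4-/- pools. WT replicate 1 and can4-/- replicate 2 were the highest of their genotype, and the groups were still separate (log2 fold change -0.55 (SE 0.052), adjusted p = 3.49e-07, edgeR). Its relative hnrnpl2 was lower as well, at a log2 fold change of -0.24. Other genes with separate groups were hnrnph1, of the G-tract binding hnRNP H family (-0.47), hnrnpc, which the annotation pairs with human RALYL (-0.32), and hnrnpk, a poly(C)-binding protein (-0.24). hnrnpd and hnrnpdl, of the AU-rich element binding group, changed by -0.24 and -0.31, but they overlap each other on the same strand of chromosome 10, so reads in the overlap could be counted for either. Also lower were hnrnph1l (-0.31) and hnrnpabb (-0.23).

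The hnRNP A0 and A1 genes encode related proteins, of which hnRNP A1 is the prototype antagonist of SR proteins at splice sites. hnrnpa0a held 4417, 4009, 3926, 3777 and 4291 counts in WT and 2226, 2675, 2597, 2402 and 2140.0 in can4-/- pools (log2 fold change -0.76 (SE 0.066), adjusted p = 1.34e-07, edgeR). No can4-/- pool reached the lowest WT pool, but this gene overlaps dpf2l and an unnamed gene. hnrnpa0b was measured at 7102, 6001, 4970.0, 4817 and 5634 in WT and 3898, 3987, 4553, 3814 and 2526 in can4-/- pools. Its groups were separate, but the pools of each genotype spread widely, with WT replicate 1 high and can4-/- replicate 5 low (log2 fold change -0.60 (SE 0.14), adjusted p = 0.00121, edgeR). The files hold a pair of genes with the symbol hnrnpa0l. The one on chromosome 20 went from 199.8 ± 16.3 to 141 ± 16.6 (SD, n = 5). The abundant one on chromosome 14 went from 10348 ± 561 to 9653 ± 222 (SD, n = 5), at an adjusted p of 0.0498 (edgeR). Without WT replicate 1 its adjusted p was 0.172 (edgeR) with a log2 fold change of -0.06. Its call was also lost without WT replicate 3 or 5, or can4-/- replicate 1, 3, 4 or 5.

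hnrnpa1a was counted at 1199.5, 896, 816, 736 and 829 in WT and 695, 808, 839, 709.7 and 664 in can4-/- pools. The groups overlapped, and the WT mean was raised by replicate 1. The log2 fold change was -0.27 (SE 0.11) with an adjusted p of 0.0488 (edgeR), and without WT replicate 1 it was -0.14 with an adjusted p of 0.13. The call of hnrnpa1a was also lost without WT replicate 2, or can4-/- replicate 1, 4 or 5. hnrnpa1b had a log2 fold change of -0.43 (SE 0.12) (adjusted p = 0.00465, edgeR) and its counts ranged from 772 to 1132 in WT and from 502 to 782 in can4-/- pools, so the groups overlapped here too. WT replicate 1 had the highest WT value and can4-/- replicate 5 the lowest mutant value in hnrnpa0b, hnrnpa1a, hnrnpa1b, hnrnpm (-0.40) and hnrnpaba (-0.51), a set put together after the values were seen. The groups of hnrnpaba overlapped, while those of hnrnpm did not. Across the family, WT replicate 1 was the highest WT pool for 19 of 24 hnRNP genes, 13 of 17 SR genes and 67 of all 100 genes, where 25.2% of all genes tested had their highest WT value in that pool. For can4-/- replicate 5 as the lowest mutant pool the counts were 14 of 24 hnRNP genes and 37 of 100 genes, against 21.5% of all genes tested. For can4-/- replicate 2 as the highest mutant pool they were 14 of 24 and 48 of 100, against 21.8%.

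hnrnph3 was the only hnRNP gene above WT. It was counted at 406, 361, 381, 381 and 395 in WT and 485, 464, 488, 462 and 439 in can4-/- pools, with every mutant pool above every WT pool (log2 fold change 0.28 (SE 0.055), adjusted p = 0.000375, edgeR). With library totals its log2 fold change was 0.11 and did not pass.

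**Figure D2:**
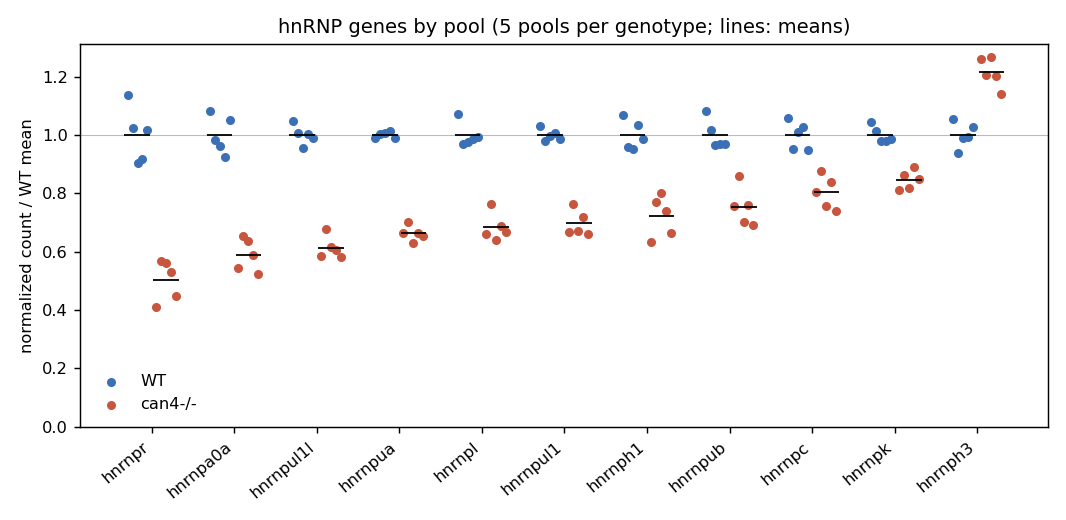
Normalized counts of 11 hnRNP genes in each of the 5 WT (blue) and 5 can4-/- (red) pools, divided by the WT mean of the gene; horizontal lines are the means of each genotype. From hnrnpr to hnrnpk all can4-/- pools lie below all WT pools, with mean ratios from 0.503 to 0.847, and hnrnph3 lies above.

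The SR proteins followed at a smaller size. Of 17 genes, 13 were lower, 1 was higher and 3 did not pass, with a median log2 fold change of -0.25, and 11 of the lower genes had no overlap between genotypes. The family took 0.14% ± 0.00226 of all counts in WT and 0.104% ± 0.00386 in can4-/- pools (SD, n = 5), again without TMM factors. Without the 20 highest genes of each pool the share was 0.163% in WT and 0.125% in can4-/- pools. Without both pools that stood apart, 12 genes were lower.

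srsf9 had normalized counts of 1200.4, 1134, 1036, 1054 and 1104 in WT and 726, 921, 830.1, 764 and 821 in can4-/- pools, the largest decrease among SR genes with a mean of at least 100 (log2 fold change -0.44 (SE 0.064), adjusted p = 2.55e-05, edgeR). srsf5b (chromosome 20, 28869969-28884829, GRCz11) was at 5124, 5086, 5130.3, 4947 and 4914 in WT and 3748, 3700.4, 3985, 3772 and 3649 in can4-/- pools. The pools of each genotype lay within a narrow band and the bands were far apart (log2 fold change -0.42 (SE 0.037), adjusted p = 2.00e-07, edgeR). srsf3b, a copy of the small SR protein gene SRSF3, went from 4896, 4615, 4592, 4639 and 4797 in WT to 3689.6, 3816, 3578, 3676 and 3591 in can4-/- pools (log2 fold change -0.36 (SE 0.037), adjusted p = 8.46e-07, edgeR). All mutant pools were again below all WT pools.

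SRSF1, the founding SR protein, has copies srsf1a and srsf1b. srsf1a was counted at 7005, 6928, 6684, 6551 and 6745 in WT and 5599, 5618, 5232, 5613 and 5420.5 in can4-/- pools (log2 fold change -0.30 (SE 0.038), adjusted p = 6.91e-06, edgeR). srsf1b was lower too, from 2018 ± 36.5 to 1677 ± 99.6 (SD, n = 5; log2 fold change -0.27). srsf4 and srsf6b, which encode SR proteins with long arginine and serine-rich domains, had log2 fold changes of -0.32 and -0.31. Both copies of SRSF2, a protein of nuclear speckles, were lower as well, srsf2a at -0.16 and srsf2b at -0.25. srsf7a and srsf11 were lower at -0.19 and -0.19. srsf6a, srsf7b and srsf10b did not pass, at log2 fold changes of -0.14, -0.38 and 0.07. srsf5a passed at -0.14, but its call was lost without WT replicate 1 (-0.10), WT replicate 4 (-0.13), can4-/- replicate 3 (-0.12) or can4-/- replicate 4 (-0.13).

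The only higher SR gene is uncertain in identity. A pair of genes carries the symbol srsf3a, and their spans overlap on the same strand of chromosome 6 (41080003-41085692 and 41080207-41091238, GRCz11). The second, which was named after its values were seen, had 3.38, 18.5, 8.71, 9.23 and 7.87 counts in WT and 77.5, 27, 58.1, 62.2 and 46.2 in can4-/- pools. Every mutant pool was above every WT pool, with can4-/- replicate 2 the lowest mutant pool (log2 fold change 2.50 (SE 0.36), adjusted p = 2.36e-05, edgeR). Most WT pools lay under the filter minimum of 10 counts, so this gene was tested only because of its counts in can4-/- pools. Its call and its separate groups are therefore no independent support for a rise, and its place among the higher genes carries this limit. The first held 759 ± 33.7 counts in WT and 692 ± 47.8 in can4-/- pools (SD, n = 5; log2 fold change -0.13, adjusted p = 0.043, edgeR), a call that was lost in 8 of 10 cases when 1 pool was left out. No label or method states how reads in the shared part were assigned.

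U2AF, the dimer that binds the end of the intron, was lower in all 3 genes. u2af2a, a copy of the large subunit (chromosome 16, 12812214-12821768, GRCz11), was measured at 3966, 3827, 3883, 3823 and 3941 in WT and 2999.7, 3335, 2825, 3169 and 2806 in can4-/- pools (log2 fold change -0.36 (SE 0.049), adjusted p = 1.38e-05, edgeR). Its sister copy u2af2b went from 4965 ± 237 to 4359 ± 121 (SD, n = 5; -0.19). u2af1, the small subunit, went from 1751 ± 140.0 to 1432 ± 105 (-0.29). None of the 3 overlapped between genotypes. The 3 ddx39 genes, which encode the helicases that act with U2AF in early splicing and in mRNA export, were lower too, at -0.29 for ddx39aa, -0.22 for ddx39ab and -0.23 for ddx39b. Only ddx39aa had separate groups.

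**Figure D3:**
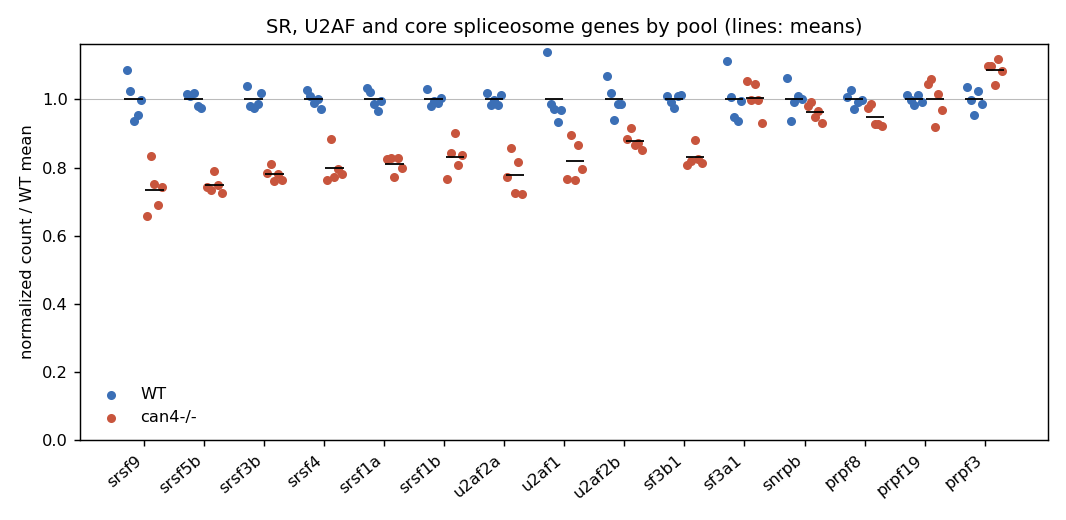
Normalized counts of 15 SR, U2AF and core spliceosome genes in each WT (blue) and can4-/- (red) pool, divided by the WT mean of the gene; horizontal lines are the means of each genotype. From srsf9 to sf3b1 the genotypes are separate, with mean ratios from 0.735 to 0.878, while for sf3a1, snrpb, prpf8 and prpf19 they overlap.

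Fewer SF3, snRNP, LSm and PRPF genes passed as lower with TMM factors. Of 46 genes, 12 were lower, 5 were higher and 29 did not pass, with a median log2 fold change of -0.06. The 44 SR, hnRNP and U2AF genes, in comparison, had 39 lower, 2 higher and 3 not passing, with a median of -0.31. With library totals, 37 of the 46 were lower, none was higher and 9 did not pass, so the low number of decreases depends on the scaling. Of all genes tested, 47.7% were lower with library totals. The set is wider than the snRNP core, since it also holds LSm-like genes outside the spliceosome, lsm12b and lsm14aa among the higher ones, and the kinase genes prpf4ba and prpf4bb. The difference between the sets of 46 and 44 genes was not tested.

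sf3b1, the largest subunit of the SF3B complex that recognizes the branch point (chromosome 9, 32161623-32177117, GRCz11), was among the lower genes. Its counts were 9507, 9342, 9181, 9504 and 9524 in WT and 7608, 7721, 8294, 7762 and 7659 in can4-/- pools, with can4-/- replicate 3 above the other mutant pools and no overlap (log2 fold change -0.27 (SE 0.037), adjusted p = 1.67e-05, edgeR). sf3b5, the smallest subunit, changed by -0.30 and sf3a2 by 0.19, whereas sf3a1, sf3a3, sf3b2, sf3b3, sf3b4 and sf3b6 did not pass, at -0.07 to 0.02. The SF3 genes therefore did not share 1 direction, although with library totals 7 of the 9 SF3 genes were lower and none was higher. Their median was then -0.24, where 47.7% of all genes were lower, at a median of -0.17.

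Of the proteins that make up the U1 particle, snrpa, which binds a loop of U1 RNA, went from 2033, 1935, 2033, 2032 and 1906 in WT to 1641, 1807, 1619, 1730.3 and 1639 in can4-/- pools (log2 fold change -0.24 (SE 0.042), adjusted p = 0.000172, edgeR), with separate groups. snrpc, which helps U1 to bind the start of the intron, changed by -0.17. The U2 proteins snrpa1 and snrpb2 did not pass (-0.08 and 0.06). In the ring of Sm proteins that all major snRNPs share, snrpd1 (-0.21) and snrpf (-0.21) were lower. snrpb, snrpd2, snrpe, snrpg and snrpd3l did not pass, between -0.13 and 0.03. snrpd3 was called higher at 0.26, from few counts (178 ± 16.8 in WT and 213 ± 23.7 in can4-/- pools, SD, n = 5), but it overlaps p2rx4b and lost the call without WT replicate 3, WT replicate 4 or can4-/- replicate 4. With library totals 10 of the 12 snRNP genes were lower and none was higher, at a median of -0.24. Of all genes, 47.7% were lower with that scaling, at a median of -0.17.

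LSm proteins form the ring of the U6 snRNP, and a related ring with lsm1 starts mRNA decay in the cytoplasm. lsm3, lsm4, lsm6, lsm7 and lsm8 did not pass, at log2 fold changes between -0.10 and 0.01, but with library totals all 5 were lower, between -0.28 and -0.17. The median of all genes was -0.17 with that scaling, and 47.7% of them were lower. lsm5 (-0.11) and lsm1 (-0.17) were lower, both with an adjusted p close to the threshold (0.0482 and 0.0345, edgeR). The lsm1 change was -0.11 without can4-/- replicate 3. The naming rule also caught LSm-like proteins that are no part of the spliceosome, and 2 of these rose, while lsm11, lsm12a and lsm14ab did not pass, between -0.06 and -0.04. lsm12b was at 2045, 2030.1, 2030.1, 1997 and 1985 in WT and 2407, 2296, 2478, 2386 and 2403 in can4-/- pools (log2 fold change 0.25 (SE 0.034), adjusted p = 1.68e-05, edgeR). lsm14aa, of a family that acts in translational repression, was at 1281, 1257, 1179.7, 1109 and 1167 in WT and 1556, 1409, 1463, 1377 and 1406 in can4-/- pools (log2 fold change 0.27 (SE 0.05), adjusted p = 0.000282, edgeR). Both had separate groups, but with library totals neither passed (0.07 and 0.09). lsm12b lies on chromosome 12 (3287783-3299149), as do lsm5, srsf2a and the mutated gene top2a (10706772-10740236). The part of this shared chromosome in their changes was not tested.

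Among the 13 PRPF genes, prpf8, the large protein at the heart of the catalytic particle, held 16002, 16315, 15422, 15773 and 15866 counts in WT and 15458, 15676, 14746, 14750.5 and 14627 in can4-/- pools. The groups overlapped and the change of -0.08 (SE 0.036) did not pass (adjusted p = 0.0677, edgeR), but with library totals 11 of the 13 PRPF genes were lower, and prpf8 was at -0.25 (adjusted p = 3.68e-05, edgeR). The PRPF median was then -0.26, where 47.7% of all genes were lower, at a median of -0.17. prpf31 and prpf19, of the tri-snRNP and of the complex that activates the spliceosome, were at -0.02 and 0.0017 and did not pass, and neither did prpf4, prpf18, prpf38a and prpf39, between -0.10 and 0.07. The lower genes were prpf4ba (-0.35) and prpf4bb (-0.25), copies of a kinase gene that phosphorylates spliceosome proteins, prpf38b (-0.26) and prpf6 (-0.11). prpf3, a tri-snRNP protein, was higher, at 1943, 1872, 1793, 1924 and 1849 in WT and 2057, 2058, 1953, 2096 and 2032 in can4-/- pools (log2 fold change 0.12 (SE 0.038), adjusted p = 0.0102, edgeR). Its groups did not overlap, but with library totals it was at -0.05 and did not pass.

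Of the 7 RBM genes, 4 were lower and none was higher, and with library totals all 7 were lower. Their median was then -0.34, where 47.7% of all genes were lower, at a median of -0.17. rbm25a, of an exon inclusion factor, was measured at 279, 296, 274, 308 and 290.1 in WT and 194, 168, 224, 235 and 149 in can4-/- pools (log2 fold change -0.57 (SE 0.11), adjusted p = 0.00034, edgeR), and its more abundant copy rbm25b was at -0.09 and did not pass. rbm39a, which overlaps other genes, and rbm39b, both U2AF-related, changed by -0.31 and -0.16. rbm8a, the Y14 protein of the exon junction complex, changed by -0.22. rbm17 and rbm22 did not pass, at -0.08 and -0.11.

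Zebrafish often keep a pair of copies of a gene, and the ratio of their counts within a pool does not depend on how libraries are scaled. The naming pattern, a last letter a or b, gave 18 pairs, which include snrpa with snrpb and prpf38a with prpf38b, whose proteins are different ones. In 7 pairs the ratios did not overlap between genotypes, and each reached the smallest p of 5 pools against 5, 0.00794, or 0.0204 after adjustment over the 18 pairs (two-sided exact permutation test). Copy pairs of other genes were not counted, so whether separate ratios are more common among splicing genes is not known. For single genes, the counts of 60.8% of all genes tested did not overlap between genotypes. The log2 ratio of the first to the second copy rose in lsm14aa/lsm14ab by 0.33, in srsf5a/srsf5b by 0.28 and in srsf6a/srsf6b by 0.17. It fell by 0.30 in lsm12a/lsm12b, by 0.18 in u2af2a/u2af2b, by 0.15 in rbm39a/rbm39b and, among unlike proteins, by 0.18 in snrpa/snrpb. For rbm25a/rbm25b (-0.50) and hnrnpua/hnrnpub (-0.18) the groups overlapped and the adjusted p was 0.0317. Both were past the threshold with all pools, and leaving out most single pools ended the call.

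In lsm14aa/lsm14ab, for example, the log2 ratio lay between -1.38 and -1.29 in the WT pools and between -1.13 and -0.92 in the can4-/- pools. In srsf5a/srsf5b it lay between 0.30 and 0.50 in WT and between 0.52 and 0.79 in can4-/- pools. The ratio of srsf1a to srsf1b changed by -0.03 (exact permutation test, p = 0.619, n = 5), and that of srsf2a to srsf2b by 0.09 (p = 0.159, exact permutation test). No pair had 1 copy called higher and the other lower.

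**Figure D4:**
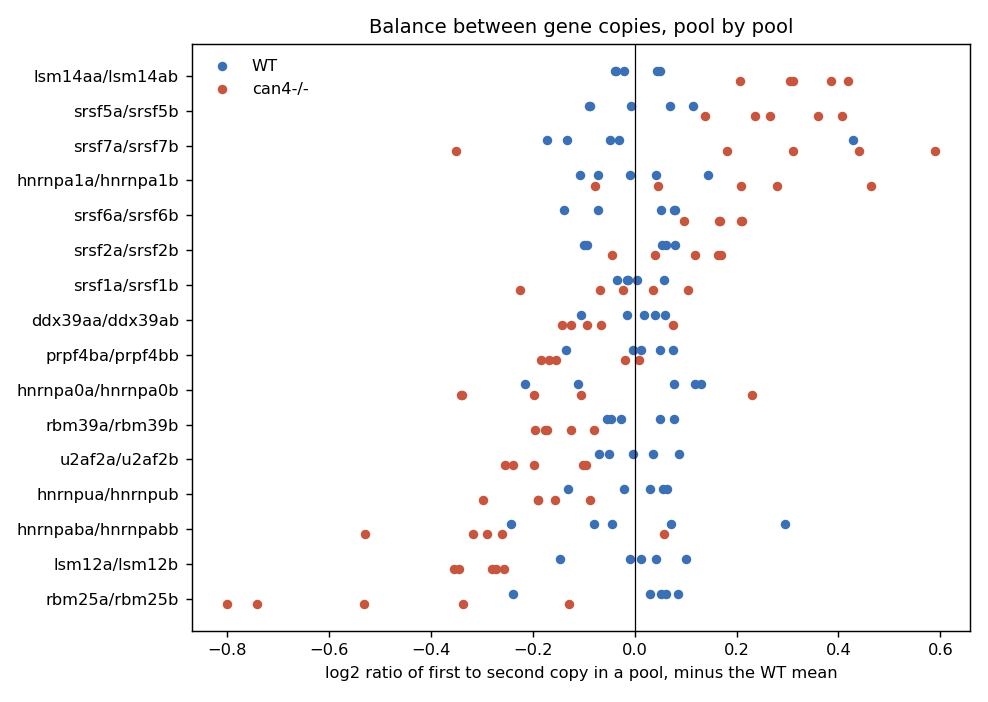
Log2 ratio of the first to the second copy of 16 gene pairs in each pool (normalized counts), minus the mean of the WT pools; blue points are WT and red points can4-/- pools. The red and blue points are separate in lsm14aa/lsm14ab, srsf5a/srsf5b, srsf6a/srsf6b, rbm39a/rbm39b, u2af2a/u2af2b and lsm12a/lsm12b, and the pairs of unlike proteins are left out.

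Other genes of the splicing pathway were counted as lists of names. Of 60 tested genes of other spliceosome proteins, 22 were lower, 4 were higher and 34 did not pass, with a median log2 fold change of -0.07. The 36.7% that were lower are near the 36.9% of all genes tested, while 36.3% of all genes were higher. With library totals 47 were lower and none higher, at a median of -0.24, where 47.7% of all genes were lower, at a median of -0.17. The largest called changes in each direction were in snrnp70, the U1-70K protein (-0.46), txnl4b (-0.45), ppil1 (0.24) and dhx16 (0.19). The minor spliceosome, which removes a rare class of introns, had 6 of 8 genes lower and none higher. Without both pools that stood apart 5 were lower. The call of zmat5 held in 4 of 10 runs with 1 pool left out. rnpc3, which binds the minor-class snRNAs, went from 858 ± 66.2 to 575 ± 33.8 (SD, n = 5; log2 fold change -0.58) and snrnp48 from 405 ± 19.8 to 315 ± 29.2 (-0.36). The lists of the minor spliceosome and of other spliceosome proteins share snrnp25, snrnp35 and snrnp48.

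In a list of factors that build snRNPs and of related genes, more genes were higher than lower. Of 19 genes tested, 10 were higher and 2 lower, and the other 7 did not pass, at a median of 0.19. Of all genes tested, 36.3% were higher and 36.9% lower. coil, the marker protein of Cajal bodies, went from 310.2 ± 21.2 to 464 ± 52.9 (SD, n = 5; log2 fold change 0.58), and gemin8, of the SMN complex, from 703 ± 35.6 to 951 ± 51.7 (0.44). The lower genes were phax (-0.44), which exports new snRNAs from the nucleus, and sart3 (-0.27), which recycles U6. The list is wider than the SMN complex and snRNP maturation. Of its higher genes, nop56, nop58 and fbl encode core proteins of the small nucleolar ribonucleoproteins, and snu13b serves these and snRNPs. With library totals 5 were higher, namely coil, gemin8, fbl, nop58 and snu13b, and 7 were lower, where 25.7% of all genes were higher and 47.7% lower. The median of the list was then 0.011, where that of all genes was -0.17, so the number of calls in each direction depends on the scaling.

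In a list of SR protein kinases and nuclear importins, 7 of 10 genes were lower and 1 was higher (median -0.31). The shares over all genes tested were 36.9% lower and 36.3% higher. clk2a, a kinase that phosphorylates SR proteins in the nucleus, went from 1515 ± 83.8 to 981 ± 88.7 (SD, n = 5; log2 fold change -0.63), and srpk3, of the SRPK kinase family, changed by -0.42. The importin genes differed. tnpo1 was lower (-0.33), tnpo2 did not pass (0.09), and tnpo3, which imports SR proteins into the nucleus, was the higher one (0.16). With library totals no gene of the list was higher. Of 18 exon junction and export genes 3 (16.7%) were lower and 2 higher, and 13 did not pass. With library totals 12 were lower and none was higher (median -0.24), where 47.7% of all genes were lower (median -0.17). thoc3 (-0.27) and thoc2 (-0.20), subunits of the THO export complex, had separate groups.

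**Figure D5:**
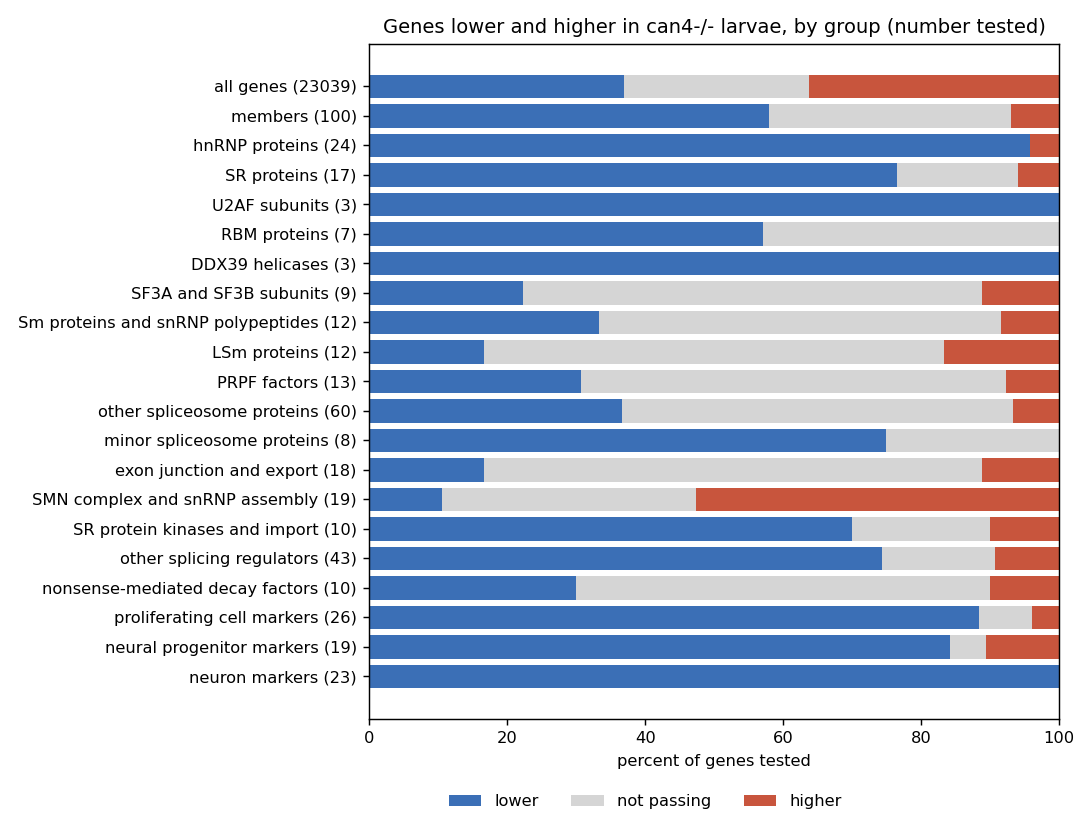
Percent of tested genes lower (blue), not passing (grey) and higher (red) in can4-/- pools at an adjusted p under 0.05, with the number tested. Bars are for all genes, the 100 splicing genes (members), their 9 roles, 7 lists of related genes and 3 lists of cell type markers. These 3 mark proliferating cells, neural progenitors and neurons. Not drawn are the blood list and the photoreceptor (17 of 17 lower), muscle (16 of 19 higher) and skin (13 of 15 higher) lists. The hnRNP bar is blue for 23 of 24 genes, while the SF3, snRNP, LSm and PRPF bars are mostly grey with the TMM factors used here.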

How the data were processed

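RNA was measured in whole zebrafish larvae of 2 genotypes, can4-/- and WT, with 5 pools of 9 larvae each. The authors aligned reads of stranded, rRNA-depleted total RNA libraries with STAR (2.7.0f, and GRCz11, per the submitters' processing notes) and deposited raw counts per gene for 25911 genes of Ensembl release 96. Neither the program that counted reads nor whether it used strand is stated in the labels or methods, so reads of overlapping genes and of close copies may be shared. The deposited annotation gave names and positions in bases, a unit listed as other. The authors' own comparison (fold changes and p-values from DESeq2 1.24.0), normalized and regularized log values were not used here.

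From the raw counts, edgeR 4.0.16 in R 4.3.3 gave TMM factors and quasi-likelihood tests with genotype as the only term, after filterByExpr (minimum count 10, minimum total 15; 23039 genes kept), with Benjamini-Hochberg adjustment over all genes and a threshold of 0.05. Normalized counts are scaled to the mean effective library size of the 10 pools. The standard error is the log2 fold change divided by the square root of F. Copy ratios used counts plus 0.5 and a two-sided exact permutation test. The fit was tested on simulated data. Pools of a genotype differed by more than sampling noise (chi-square per degree of freedom 4.79 to 27.2 in 20 pairs), so each is 1 replicate. The pools came from separate larvae, but the labels do not say whether from separate clutches.

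The 101 genes and all lists were chosen with earlier results of these data known. Genes described were those past the threshold with a mean of at least 100 and no overlap (the 15 largest changes in each direction, the largest of each role), copies with separate ratios and textbook anchors, 52 in all; the remaining members are given for completeness, except 1 that is counted in its group but not reported here. For each list at most 2 increases and 2 decreases were named. Alternatives were DESeq2 1.42.0, library totals or RLE factors for scaling, dropping the filter or raising it to 50 counts in all pools of 1 genotype, a replicate block, each pool left out, other offsets and denominators, and, chosen after seeing the data, leaving out WT replicate 1 with can4-/- replicate 2.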

Additional observations from a re-analysis of the deposited data

Results flagged for a closer look

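In 3 of 104 groups of 5 pools, 1 pool stood far from the other 4, where chance gives about 1 group in 20. hnrnpl was at 8689 normalized counts in WT replicate 1, with the next WT pool at 8058. u2af1 was at 1993 in WT replicate 1, with the next WT pool at 1728. sf3b1 was at 8294 in can4-/- replicate 3, with the next mutant pool at 7762. In each case the genotypes did not overlap.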

How the results depend on the processing

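The negative median kept its sign under every alternative run, and its size depended on the scaling. With library totals, 1 gene was higher and 88 lower, with a median of -0.35. Other settings gave 52 to 60 lower and 6 to 8 higher genes, with medians from -0.19 to -0.15, and the replicate block 54 lower and 6 higher. Same-numbered pools did not deviate together (correlations -0.022 to 0.033). This check showed no pairing by number, but it cannot exclude a weak effect of a shared clutch. For copy ratios the replicate block left 0 pairs past the threshold, since 5 differences allow no p below 0.0625, and leaving out 1 pool gave 7 to 9. Of the 52 genes and 18 ratios followed, 4 genes and 1 ratio changed sign, and of these only prpf3 had been called. prpf19 was at -0.17 with library totals, -0.0025 without a filter, -0.00018 with the replicate block, -0.0084 without both pools that stood apart and -0.0195 to 0.033 with 1 pool left out. sf3a1 was at -0.17 and prpf3 at -0.054 with library totals. With 1 pool left out, sf3a1 ranged from -0.014 to 0.053, prpf31 from -0.051 to 0.013 and the ratio srsf1a/srsf1b from -0.0701 to 0.012. hnrnpa1a also lost its call with RLE factors (-0.26), the stricter filter (-0.26) and the replicate block (-0.25). prpf8 passed with DESeq2 (-0.07). With library totals 7 genes that had not passed were called lower without a change of sign. These were prpf8 (-0.25), snrpb, prpf31, rbm22, srsf6a, lsm12a and lsm14ab. prpf19 and sf3a1, whose sign changed, were also called lower there, while hnrnph3, lsm12b and lsm14aa lost their calls. The cause was not tested. Depth limits lsm14b, hnrnpa3, srsf7b and the second srsf3a gene, which rest on few counts.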

Other observations

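Splicing regulators outside the named families were also mostly lower. Of 43 tested genes, 32 were lower, 4 were higher and 7 did not pass, with a median log2 fold change of -0.27, and with library totals 39 were lower and 3 higher. Of all genes tested, 36.9% were lower, and 47.7% with library totals. raly, an hnRNP-like RNA-binding protein gene, went from 463 ± 32.3 normalized counts in WT to 269 ± 24.3 in can4-/- pools (SD, n = 5; log2 fold change -0.78 (SE 0.075), adjusted p = 3.98e-07, edgeR), and rbm15b changed by -0.71. The largest increases were in qkia, a STAR-domain splicing factor gene, from 4366 ± 248 to 6008 ± 276 (SD, n = 5; log2 fold change 0.46), and in ddx5, an RNA helicase gene, from 24380.0 ± 544 to 31209.6 ± 1231 (0.36).

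Of 10 nonsense-mediated decay genes, 3 were lower, 1 was higher and 6 did not pass, where 36.9% of all genes were lower and 36.3% higher. With library totals 8 were lower and 1 higher, at a median of -0.29, where 47.7% of all genes were lower, at a median of -0.17. The pair of UPF3 genes differed. upf3a was at 1184, 1277, 1323, 1329 and 1260.5 in WT and 492, 615, 618, 570.3 and 553 in can4-/- pools (log2 fold change -1.16 (SE 0.062), adjusted p = 1.27e-09, edgeR). upf3b was at 1124, 1115, 1057, 1126 and 1064 in WT and 1267, 1403, 1314, 1371 and 1426 in can4-/- pools (log2 fold change 0.31 (SE 0.044), adjusted p = 2.35e-05, edgeR). Neither gene overlapped between genotypes, and smg8 changed by -0.30. The part of the cell types whose markers moved in the same pools was not tested.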
